A study of Mus musculus with 20 samples.

Results

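Integrins and the proteins that join them to the actin cytoskeleton were followed in mouse pre-B cells as the transcription factor Ikaros (IKZF1) entered the nucleus. The alpha subunit gene Itga5 lost nearly all of its nascent RNA within 6 h, falling from 98.6 ± 0.854 CPM before induction to 0.668 ± 0.446 CPM at 24 h (mean ± SD, n = 2 libraries at each time here and below). Over the same time Itga4 rose from 59.3 ± 1.72 to 311 ± 17.6 CPM and Itgb3 from 2.34 ± 0.119 to 49.9 ± 9.41 CPM. Pxn, which encodes the adhesion scaffold paxillin, was already at 65.2 and 65.5 CPM after 0.5 h, against 134 and 132 CPM at 0 h. In such bulk samples a change in fewer cells and a smaller change in every cell cannot be told apart. The genes were chosen by name, with earlier results of these data known. In all, 49 integrin subunit and focal adhesion genes were listed, and each was matched to a mouse Ensembl identifier in the count table. Of them, 40 had at least 10 counts in at least 2 of the 20 libraries and were tested among 16601 genes. Of the 9 that were left out, Itga7 and Parva reached at most 9 counts in a library and Tns1 reached 10 counts only in the second library at 0 h, with 11 counts, while Itga3, Itgb6, Itgb8, Bcar1 and Zyx had at most 4 counts in any library and Itgam was listed at 0, with 99.9% of its length shared with the annotated gene Gm49368. At the other edge, Itga1 entered the test only through its 12 and 13 counts at 2 h.

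Integrins are cell surface receptors made of an alpha and a beta subunit, which together set the ligand, such as fibronectin, laminin, collagen or the adhesion molecules of other cells. Talin and kindlin bind the beta tail and switch the receptor on, a step that the small GTPase RAP1 controls from inside the cell, and vinculin, paxillin, the ILK-PINCH-parvin complex, tensin and alpha-actinin link the occupied receptor to actin and to the kinases FAK and PYK2. Developing B cells use these receptors to hold on to bone marrow stroma, chiefly through the alpha4 beta1 integrin and VCAM1 and through the alpha5 beta1 integrin and fibronectin.

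RNA bound to chromatin was sequenced from B3 cells, a mouse line labelled pre-B and first derived from a lymphoma, in which every culture carried a retroviral construct of Ikaros fused to ERt2, the hormone-binding part of the estrogen receptor. Without ligand the fusion protein is held in the cytoplasm, and 4-hydroxytamoxifen (4-OHT) releases it into the nucleus. Untreated cells were taken as 0 h, and cells with 500 nM 4-OHT were taken at 0.5, 1, 2, 6, 12, 15, 18, 21 and 24 h, with 2 libraries at each of the 10 time points. Cells that had taken up such a construct were sorted on GFP, and whether the line was 1 clone is not given in the sources used here. Cells without the construct were not analysed here, so the entry of Ikaros, 4-OHT itself and the hours in culture cannot be told apart. The sources used here do not say whether the replicates were separate cultures, and the p-values measure the spread between these libraries. At 0 h the sample descriptions number the 2 libraries unlike the count columns, and these descriptions could mean 2 libraries of 1 culture. The 0 h columns were matched by the replicate number in the titles. The chromatin fraction is rich in RNA still being made, and the authors counted introns too, so a value stands for reads over the whole gene body. Levels are given in CPM, that is, counts brought to a common library size with TMM factors, and levels of different genes are compared only per kb of gene body.

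The libraries held 33296158 to 46868954 counts, and replicates correlated at 0.996 or more across genes on the log scale, with none standing apart from its partner. Of 10 pre-B markers, 8 were tested, with 271983 to 777036 counts summed over the list in a library. Rag1 and Rag2 were at 0 in every library, but both overlap the annotated gene B230118H07Rik. How reads over more than 1 gene were treated is not given, so these zeros need not mean that neither was transcribed. Markers of other lineages were scarce, with 21 to 93 counts summed over 6 T cell genes, 8 to 75 over 7 myeloid genes and 5 to 25 over 6 megakaryocyte genes. Only Pecam1 was abundant among the stromal and endothelial markers, and without it the sums were 3 to 4 counts at 0 h and 1 to 3 counts at 24 h. Counts of Ikzf1 itself, which the induction does not aim to change, were within 0.18 of the 0 h level (log2) through 2 h and 0.86 above it at 24 h. Scaling by library totals in place of TMM lowered the median of all genes by 0.257 (log2) at 24 h, and the changes below are relative to the TMM scaling.

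The start regions of some members that fell or rose are shown first, because the DNA letters around them can be read beside the values that follow. Each is 300 bases of RefSeq promoter sequence on GRCm38.p6, from 250 before to 50 after the annotated start, in the direction of the gene. Capitals mark GGAA and GGGA, the core letters in sites of the Ikaros family, found on either strand, so that TTCC and TCCC are the same words on the other strand. Overlapping matches were counted separately, and GGGAA holds both words. Itga5 was taken as the only member with an entry among the 3 largest falls at 1 h, Itgax as the largest rise at 2 h, and Cd44 and Itga4 were added after their values were seen. The positions are chr15:103366742-103367041 on the minus strand for Itga5, chr2:102901616-102901915 on the minus strand for Cd44, chr7:128129300-128129599 on the plus strand for Itgax and chr2:79255176-79255475 on the plus strand for Itga4.
Itga5: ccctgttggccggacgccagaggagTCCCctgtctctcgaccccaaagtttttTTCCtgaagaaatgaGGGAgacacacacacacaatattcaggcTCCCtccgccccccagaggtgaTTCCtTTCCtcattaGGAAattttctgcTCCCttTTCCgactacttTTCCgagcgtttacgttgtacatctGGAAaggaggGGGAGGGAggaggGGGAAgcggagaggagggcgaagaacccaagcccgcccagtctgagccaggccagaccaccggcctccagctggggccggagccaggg
Cd44: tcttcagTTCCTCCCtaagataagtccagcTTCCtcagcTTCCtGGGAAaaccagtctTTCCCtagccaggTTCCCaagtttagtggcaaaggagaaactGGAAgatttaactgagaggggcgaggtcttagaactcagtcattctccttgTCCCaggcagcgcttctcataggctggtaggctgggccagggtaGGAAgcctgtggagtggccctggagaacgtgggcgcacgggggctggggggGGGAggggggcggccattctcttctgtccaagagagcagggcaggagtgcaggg
Itgax: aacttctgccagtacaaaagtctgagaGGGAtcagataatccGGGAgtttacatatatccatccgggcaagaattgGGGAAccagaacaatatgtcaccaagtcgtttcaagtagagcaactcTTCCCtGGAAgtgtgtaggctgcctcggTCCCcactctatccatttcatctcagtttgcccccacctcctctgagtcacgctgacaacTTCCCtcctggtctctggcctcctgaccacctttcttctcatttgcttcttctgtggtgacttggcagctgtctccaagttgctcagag
Itga4: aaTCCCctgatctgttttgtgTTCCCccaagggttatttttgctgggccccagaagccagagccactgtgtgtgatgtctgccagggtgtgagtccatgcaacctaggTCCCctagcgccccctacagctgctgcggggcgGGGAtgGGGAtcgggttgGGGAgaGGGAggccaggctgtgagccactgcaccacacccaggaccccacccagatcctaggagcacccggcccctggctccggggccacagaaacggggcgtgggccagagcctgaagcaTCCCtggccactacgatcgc
The falling genes Itga5 and Cd44 held 15 and 14 matches, and 3.13% and 4.96% of the 32851 promoters of this length held as many. The rising genes Itgax and Itga4 held 10 and 9 matches, as many as 25.5% and 34.5% of promoters did. Either word alone was common, since 96.0% of all promoters held GGAA and 95.3% held GGGA, and the median promoter held 7 matches. Among other members, Tns3 and Parvb, which fell, held 6 and 8 matches, and Itgb1 and Vasp, which were never called, held 12 and 13. A match is only a description of the letters. The table had a promoter for 36 of the 49 genes, 29 of them tested, and Pxn, Itgal and Itgb3 were not among them.

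**Figure D1:**
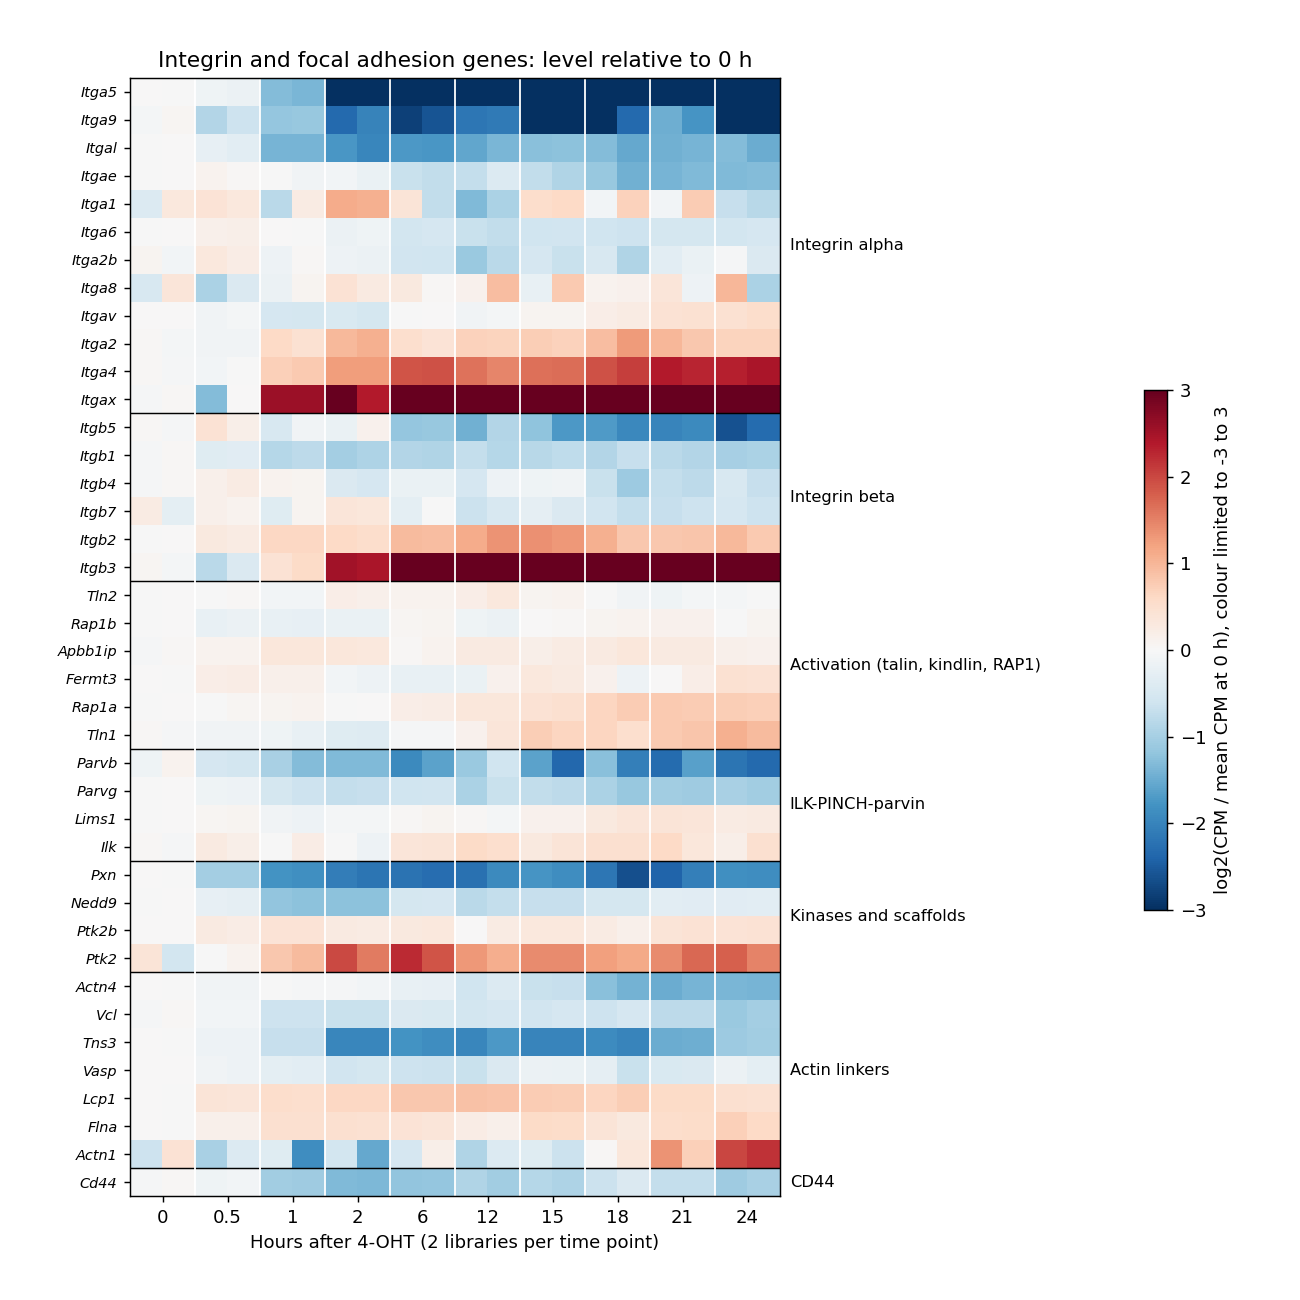
Level of each of the 40 tested genes in each of the 20 libraries, as log2 of CPM over the mean CPM at 0 h, with colours limited to -3 and 3. Columns are libraries in order of hours after 4-OHT, rows are grouped by role and sorted by the change at 24 h, and the darkest rows are Itga5 and Itga9, which fell, and Itgax and Itgb3, which rose.

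A gene was called at a time point where edgeR's quasi-likelihood test gave a Benjamini-Hochberg adjusted p-value under 0.01 and the fold change from 0 h was above 2, and all adjusted p-values below come from that fit of all 20 libraries. At 0.5 h only Pxn was called, down, where 0.41% of all genes were called down, and no member was called up, where 0.0542% of all genes were. At 1 h, 7 of the 40 tested members (17.5%) were down against 4.84% of all genes, and 1 was up (2.5%) against 2.33%. At 2 h, 8 were down (20%) against 6.91% and 5 were up (12.5%) against 6.25%. Falls therefore outnumbered rises among the members in the first 2 h, and the median change of the members at 2 h was -0.13 (log2), against 0.0261 for all genes. From 1 h on, the falls include Itga9 and the rises include Itgax. Each passed the filter only through libraries where it was high, so these 2 calls are no evidence of an excess over all genes. The same holds for Ptk2, among the rises at 2 h. It reached 10 counts in only 1 library at 0 h and in none at 0.5 h. Itga2, another rise at 2 h, lay just past the 2-fold limit, at 1.02 (log2).

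From 6 h on more of all genes were called, and the members' falls lay nearer to that background. At 6 h, 8 were down (background 9.13%) and 4 up (10.9%), and at 12 h 6 were down (9.92%) and 4 up (13.2%). At 15 h, 7 were down (13.1%) and 5 up (15.3%), at 18 h 10 were down (17.6%) and 4 up (19.1%), and at 21 h 10 were down (19.4%) and 4 up (20.1%). At 24 h, 12 members were down (30.0%) against 20.1% of all genes and 6 were up (15.0%) against 20%, with a median change of -0.125 (log2) over the members and -0.0105 over all genes. Over the whole course, 21 of 40 members changed (52.5%) and so did 51.9% of all genes tested. Of the 33 members with at least 10 counts in every library, 6 were down and 3 up at 2 h, and 10 were down and 3 up at 24 h. No share of all genes that meet this filter is given, so these counts have no background beside them. The number changed over the course lay near the background. The share of members down lay above that of all genes at all 9 time points, by most in proportion in the first 2 h, and the share up lay above it at 2 h, near it at 1 h and below it from 6 h on. The authors had reported integrin pathways as enriched among early-repressed genes. Since the members were chosen with earlier results of these data known, the excess of falls is not independent of that choice.

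**Figure D2:**
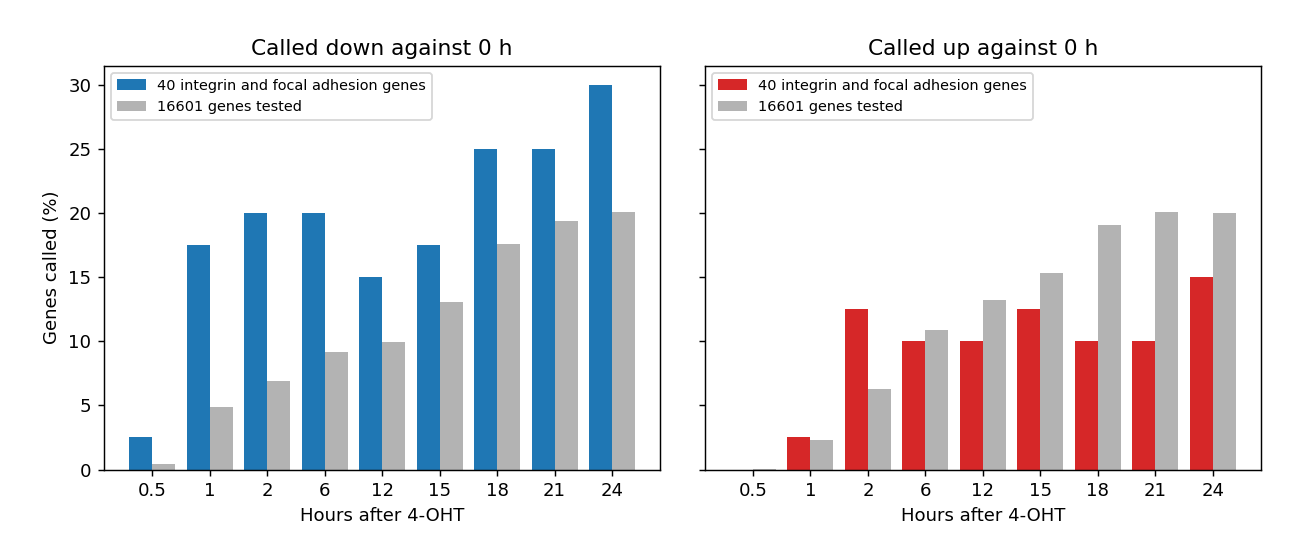
Percent of the 40 tested integrin and focal adhesion genes (coloured bars) and of the 16601 genes tested (grey bars) that were called down (left) or up (right) against 0 h at each of the 9 later time points. The members lie above all genes among falls at every time point, for example at 17.5% against 4.84% at 1 h and 30.0% against 20.1% at 24 h. Among rises they lie above all genes at 2 h, at 12.5% against 6.25%, and below them from 6 h on. The rises at 2 h include Itgax and Ptk2, which passed the filter only with libraries where they were high. The members were chosen with earlier results of these data known.

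Among the receptors, 12 of 15 alpha and 6 of 8 beta subunit genes were tested. Of the alpha subunits, 3 were down and 3 up at 2 h, and 4 were down and 2 up at 24 h. Of the beta subunits, none was down and 1 was up at 2 h, and 1 was down and 1 up at 24 h. The shares of all genes were 6.91% (down) and 6.25% (up) at the earlier of these times, against 20.1% (down) and 20% (up) at the later. The alpha and beta counts were not tested against each other.

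Itga5 (ENSMUSG00000000555, chr15:103344286-103366763, minus strand, GRCm38), the alpha subunit of the fibronectin receptor, had the largest fall of any tested member. Its levels were 99.3 and 98.0 CPM at 0 h, 90.0 and 87.4 CPM at 0.5 h, 40.4 and 38.2 CPM at 1 h, 5.98 and 6.34 CPM at 2 h and 1.14 and 0.884 CPM at 6 h. From 12 to 24 h every library lay between 0.353 and 1.20 CPM. The libraries at 0.5 h sat just below those at 0 h, and every later library lay far below both, without overlap. On the log2 scale it had changed by -1.33 (SE 0.0797, adjusted p = 9.21e-12) at 1 h, -4.00 (SE 0.0999, adjusted p = 2.31e-18) at 2 h and -7.23 (SE 0.147, adjusted p = 7.08e-21) at 24 h. At 0.5 h it was -0.15 (SE 0.0763, adjusted p = 0.213), which did not pass.

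Itgal (ENSMUSG00000030830), the alpha subunit of LFA-1, the leukocyte receptor for ICAM proteins, fell early and then stayed at a lower plateau. It had 71.8 and 72.1 CPM at 0 h, 60.2 and 57.6 CPM at 0.5 h, 27.5 and 27.3 CPM at 1 h, 21.3 and 18.6 CPM at 2 h and 29.4 and 25.8 CPM at 24 h. The libraries from 1 h on, between 18.6 and 30.5 CPM, did not overlap those at 0 or 0.5 h. Its log2 change was -1.39 (SE 0.0716, adjusted p = 7.14e-13) at 1 h, -1.85 (SE 0.0746, adjusted p = 6.41e-15) at 2 h and -1.38 (SE 0.073, adjusted p = 1.32e-13) at 24 h, so that it ended 0.47 (adjusted p = 2.05e-05) above its 2 h level on that scale. Itga9, whose product pairs with beta1, was low throughout but fell too, with 29 and 30 counts at 0 h, 14 and 12 counts at 1 h, 5 and 7 counts at 2 h and 1 and 2 counts at 24 h. The counts at 0 h were 15.3 times those at 24 h per library size, with a 95% interval from 4.97 to 76.1 that covers counting error only, and its call at 1 h had a log2 change of -1.15 (SE 0.265, adjusted p = 0.0014). Itga9 passed the filter only through its libraries at 0, 0.5 and 1 h, so a fall was built into its being tested.

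Itgae (CD103), whose product with beta7 binds E-cadherin, declined after 2 h and was called only from 18 h on. Its log2 change was -0.71 at 6 h, -0.56 at 12 h and -0.82 at 15 h, inside the 2-fold limit. Its levels were 38.7 and 38.8 CPM at 0 h, 36.5 and 33.9 CPM at 2 h, 17.7 and 14.3 CPM at 18 h and 15.4 and 15.8 CPM at 24 h. The libraries from 18 h on lay below all earlier ones. Its log2 change was -0.14 (adjusted p = 0.162) at 2 h and -1.31 (SE 0.0919, adjusted p = 1.82e-11) at 24 h, and the difference between 24 and 2 h was -1.18 (SE 0.093, adjusted p = 1.95e-10).

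Itga4 (ENSMUSG00000027009, chr2:79255426-79333123, plus strand, GRCm38), the alpha subunit of VLA-4 and the main receptor for VCAM1, rose in the first 6 h, dipped and rose again. It had 60.5 and 58.1 CPM at 0 h, 97.9 and 103 CPM at 1 h, 141 and 141 CPM at 2 h, 218 and 222 CPM at 6 h, 184 and 164 CPM at 12 h, 185 and 190 CPM at 15 h, 222 and 249 CPM at 18 h and 298 and 323 CPM at 24 h. The libraries at 12 and 15 h lay below those at 6 h without overlap. The libraries at 0.5 h, at 56.5 and 59.0 CPM, overlapped those at 0 h, and every library from 1 h on was higher than those at 0 h. The log2 change was 0.76 (SE 0.0604, adjusted p = 9.56e-10) at 1 h, below the 2-fold limit, then 1.25 (SE 0.0602, adjusted p = 1.36e-13) at 2 h and 2.39 (SE 0.0607, adjusted p = 3.12e-19) at 24 h. Itga4 overlapped antisense Cerkl over 3.32% of its length, and whether the counting used strand is not given in the sources used here.

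Itgax (CD11c), an alpha subunit better known from dendritic and myeloid cells, went from near absence to a low but clear signal. It had 3 and 3 counts at 0 h, 1 and 3 counts at 0.5 h, 19 and 16 counts at 1 h, 23 and 15 counts at 2 h, 60 and 62 counts at 6 h and 79 and 97 counts at 24 h. The libraries at 0 and 0.5 h overlapped, and every later library was higher. Per library size the counts were 5.94 times those at 0 h at 1 h (95% counting interval 2.47 to 17.3), 7.04 times at 2 h (2.95 to 20.4) and 37.8 times at 24 h (17.0 to 104), with adjusted p = 0.000109, 1.88e-05 and 7.56e-13. Itgax reached 10 counts only from 1 h on and so passed the filter only through libraries where it is high, and a rise was built into its being tested and into its place as the 1 member up at 1 h. The 7 myeloid markers summed to 63 to 75 counts at 0 h, 40 to 49 at 2 h and 13 to 20 at 24 h, and most of these were counts of Csf1r, the only gene of that list that was tested. Csf1r, the receptor for macrophage colony stimulating factor, had 56 and 52 counts at 0 h, 35 and 44 counts at 2 h and 10 and 19 counts at 24 h, with a log2 change of -0.30 (adjusted p = 0.416) at 2 h, which did not pass, and -1.53 (adjusted p = 0.00106) at 24 h. In that list S100a8 was at 0 in every library, and Cd14, Elane, Ly6g, Lyz2 and Mpo each had 10 counts or fewer in any library.

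Itga2, a collagen receptor subunit, stayed below 10 CPM, with 3.63 and 3.40 CPM at 0 h and 6.89 and 7.38 CPM at 2 h. Its libraries at 2 h did not overlap those at 0 h, and the log2 change of 1.02 (SE 0.108, adjusted p = 5.03e-08) lay just past the 2-fold limit, dropping to 0.97 without the second library at 0 or at 2 h. It was called again at 18 h (1.10) but not at 24 h (0.67). Itgav, the alpha subunit shared by the vitronectin receptors, was not called at any time, with log2 changes of -0.52 at 1 h and 0.49 at 24 h. Itga6, the laminin receptor subunit, was 0.53 below 0 h at 24 h on the log2 scale, and Itga2b, the platelet subunit, was at -0.95 at 12 h and -0.22 at 24 h, each inside the 2-fold limit. Itga1 and Itga8 held too few counts to place, with at most 13 and 16 in a library.

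Itgb3 (ENSMUSG00000020689, chr11:104608000-104670476, plus strand, GRCm38), the beta subunit that pairs with alphav or with the platelet subunit, had the largest rise of the beta subunits. Its levels were 2.42 and 2.25 CPM at 0 h, 1.33 and 1.74 CPM at 0.5 h, 3.12 and 3.49 CPM at 1 h, 13.4 and 12.8 CPM at 2 h and 49.7 and 48.2 CPM at 6 h. It peaked with 105 and 101 CPM at 15 h and stood at 56.6 and 43.3 CPM at 24 h. The libraries at 0.5 h were the lowest of the course, those from 2 h on were above all earlier ones, and those at 24 h lay below those at 15, 18 and 21 h. The log2 change was 2.48 (SE 0.158, adjusted p = 1.5e-11) at 2 h, 5.46 (SE 0.131, adjusted p = 3.29e-19) at 15 h and 4.41 (SE 0.137, adjusted p = 1.02e-17) at 24 h. Megakaryocyte markers summed to 16 to 18 counts at 0 h, 24 to 25 at 2 h and 15 to 24 at 24 h over 6 genes. Of them, Pf4, Ppbp and Gp1bb were at 0 in every library, though Gp1bb overlaps the annotated genes Gm49601 and Sept5. Gp9, a platelet glycoprotein gene and the only marker of these that was tested, had 12 and 10 counts at 0 h, 24 and 23 counts at 2 h, 9 and 5 counts at 6 h and 15 and 19 counts at 24 h. It was called up at 2 h, as Itgb3 was, with a log2 change of 1.24 (adjusted p = 0.00347), and was at -0.62 (adjusted p = 0.249) at 6 h and 0.98 (adjusted p = 0.018) at 24 h, and the part of these markers in the rise of Itgb3 was not tested.

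Itgb1, the beta subunit of most matrix receptors and the partner of alpha4 and alpha5, fell to just short of the limit. It had 138 and 143 CPM at 0 h, 69.7 and 73.3 CPM at 2 h and 69.8 and 72.2 CPM at 24 h, without overlap between 0 h and the others. The log2 change was -0.97 (SE 0.0552, adjusted p = 2.19e-12) at 2 h and -0.98 (SE 0.0557, adjusted p = 4.75e-13) at 24 h, and with library totals the value at 24 h was -1.24 and passed. Itgb2, the leukocyte beta subunit and partner of the products of Itgal and Itgax, rose and passed the limit only at 12 h (log2 change 1.24) and 15 h (1.33, adjusted p = 1.31e-12), and it stood at 0.87 at 24 h. Itgb5, a vitronectin receptor subunit, had 2.61 and 2.50 CPM at 0 h, 2.24 and 2.78 CPM at 2 h and 0.418 and 0.516 CPM at 24 h. Its libraries at 0 and 2 h overlapped, those at 24 h were the lowest of the course, and the log2 change at 24 h was -2.44 (SE 0.241, adjusted p = 6.09e-09). Itgb4 and Itgb7 were not called, at -0.58 and -0.56 at 24 h.

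**Figure D3:**
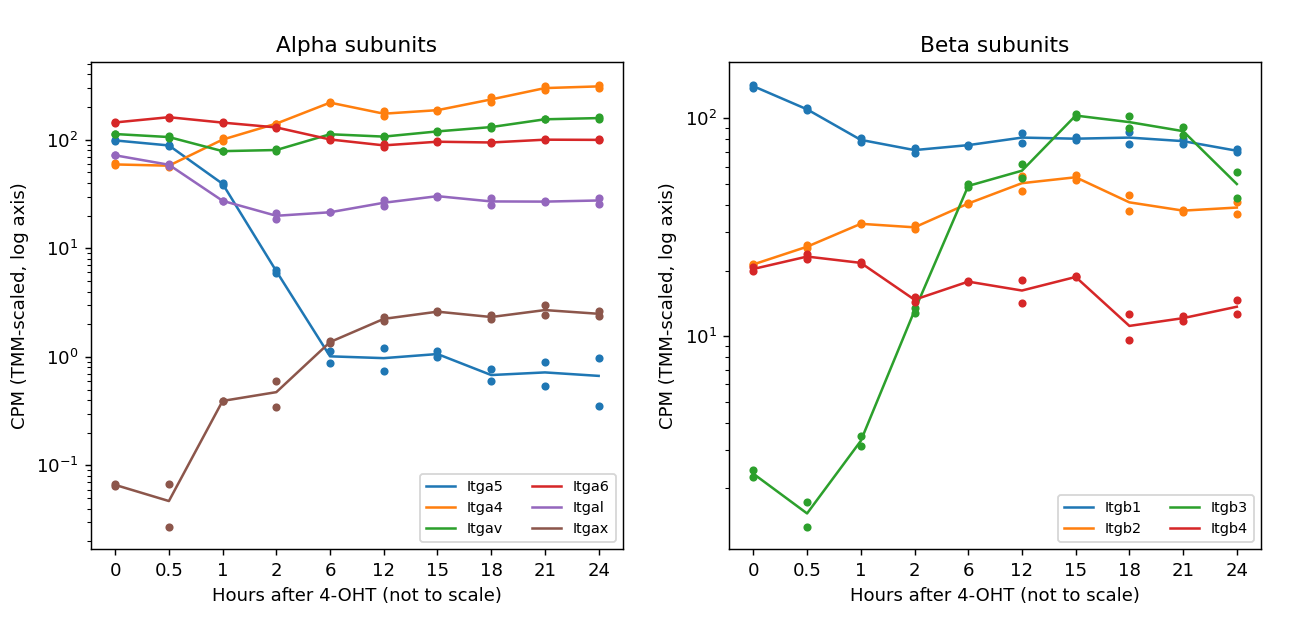
Levels of 6 alpha (left) and 4 beta (right) subunit genes in CPM on a log axis against hours after 4-OHT, with a point for each library and a line through the mean of the 2. Itga5 drops from 98.6 to 0.668 CPM while Itga4 climbs to 311 CPM, and Itgb3 rises from 2.34 CPM to above 100 CPM at 15 h before it declines to 49.9 CPM.

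The make-up of the receptor transcripts shifted with these moves. Per kb of gene body, Itga5 made up 41.6% to 41.8% of the summed alpha subunit level in the 2 libraries at 0 h, 4.72% to 5.12% at 2 h and 0.190% to 0.549% at 24 h. Itga4 went from 7.14% to 7.38% at 0 h to 32.2% to 32.9% at 2 h and 48.1% to 50.4% at 24 h, and so took the leading place. Itgav went from a mean of 13.0% to 23.6% and Itgal from 17.6% to 8.77% between 0 and 24 h. Among beta subunits, Itgb1 went from 66.5% to 67.7% at 0 h to 35.7% to 40.6% at 24 h, Itgb2 from a mean of 13.7% to 28.0%, and Itgb3 from 0.814% to 0.888% at 0 h to 30.5% to 32.6% at 18 h and 18.5% to 22.0% at 24 h. Summed alpha levels themselves were 10.6 and 10.5 CPM per kb at 0 h, 5.63 and 5.51 CPM per kb at 2 h and 7.98 and 8.25 CPM per kb at 24 h. The summed beta levels were 4.36 and 4.43 CPM per kb at 0 h, 3.29 and 3.30 CPM per kb at 2 h and 4.11 and 3.74 CPM per kb at 24 h. These shares describe nascent RNA over gene bodies and not protein at the surface. They divide by the whole gene body, though Itga1 (44.8%), Itgav (26.8%), Itgb4 (16.8%) and Itga6 (11.4%) overlap other annotated genes over part of their length. How reads in those parts were counted is not given, so the shares of these subunits are less certain.

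**Figure D4:**
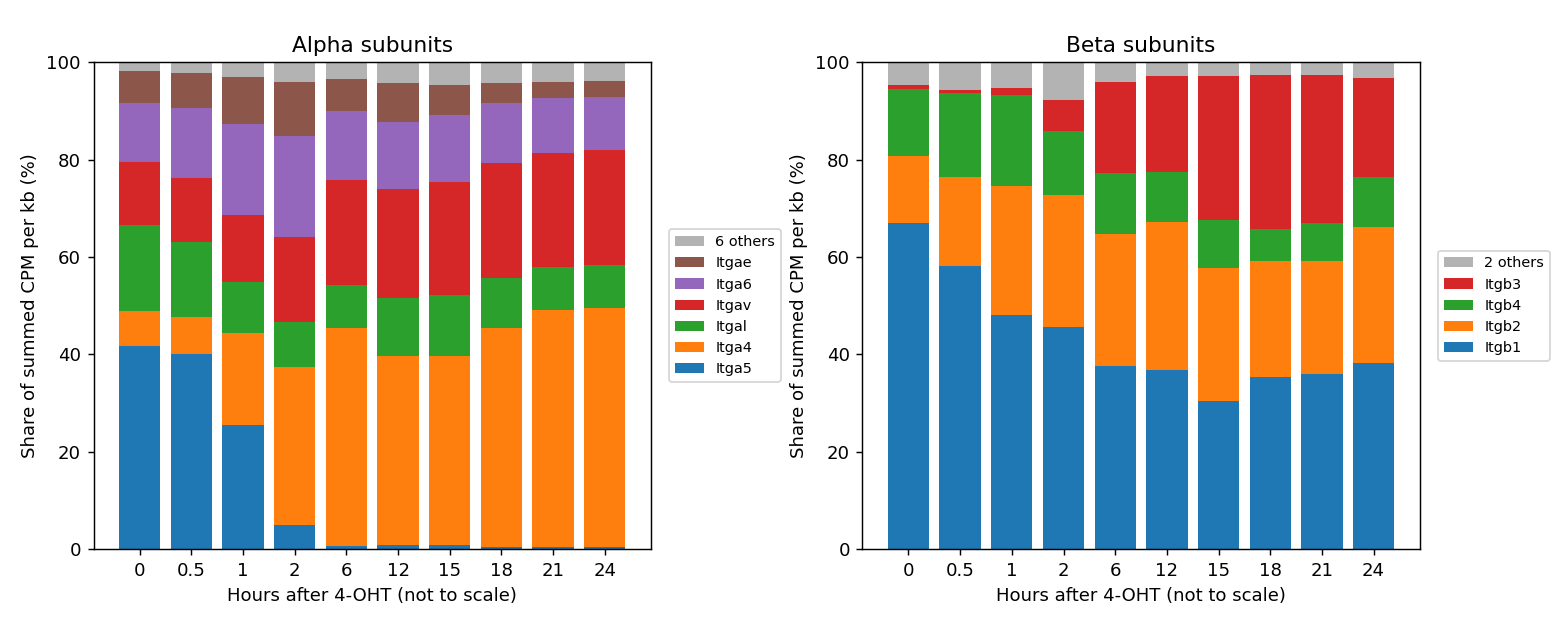
Share of each subunit gene in the summed CPM per kb of the 12 tested alpha (left) and 6 tested beta (right) subunit genes, as the mean of 2 libraries at each time point. Itga5 shrinks from 41.7% to 0.369% as Itga4 grows from 7.26% to 49.2%, and Itgb3 grows from 0.851% to 31.6% at 18 h while Itgb1 shrinks from 67.1% at 0 h to 35.3%.

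Of the 6 genes tested that switch integrins on, none was called before 24 h, when Tln1, which encodes talin 1, was up. In a group of this size the all-gene shares of 6.91% down and 6.25% up at 2 h leave little room for calls, and at 24 h 20% of all genes were up. Tln1 had 96.1 and 92.6 CPM at 0 h, 73.5 and 72.7 CPM at 2 h and 197 and 183 CPM at 24 h. The libraries at 2 h lay below and those at 24 h above those at 0 h, with no overlap. Its log2 change was -0.37 (adjusted p = 2.43e-05) at 2 h and 1.01 (SE 0.0595, adjusted p = 8.81e-13) at 24 h, where library totals gave 0.75 and ended the call. Tln2, the other talin, had log2 changes of 0.18 at 2 h and -0.03 at 24 h, and per kb its level was 0.254 CPM at 24 h against 6.10 for Tln1. Fermt3, the blood cell kindlin, was at 0.44 at 24 h, and Rap1a, a GTPase that activates integrins, at 0.72. Apbb1ip, the RAP1 effector RIAM that brings talin to the membrane, had a log2 change of 0.15 and Rap1b of 0.04 at 24 h, and both turned negative with library totals, at -0.10 and -0.22.

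Among the kinases and scaffolds of the adhesion plaque, both tested scaffolds fell early and neither kinase was called down. Of all genes, 4.84% were down at 1 h and 6.91% at 2 h, and a group of 4 tested genes is too small to set against these shares. Pxn (ENSMUSG00000029528, chr5:115506676-115555987, plus strand, GRCm38) was the fastest member and was called at all 9 later time points. It had 134 and 132 CPM at 0 h, 65.2 and 65.5 CPM at 0.5 h, 38.4 and 36.9 CPM at 1 h, 31.4 and 28.9 CPM at 2 h and 36.9 and 36.7 CPM at 24 h. No library after 0 h overlapped those at 0 h, and from 1 h on all lay between 21.3 and 38.9 CPM. Pxn had a log2 change of -1.02 (SE 0.1, adjusted p = 2.64e-07) at 0.5 h, -2.14 (SE 0.107, adjusted p = 2.4e-13) at 2 h and -1.85 (SE 0.106, adjusted p = 5.44e-13) at 24 h.

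Nedd9 (ENSMUSG00000021365), the Cas family docking protein of lymphocytes, dipped and came back. Its levels were 1380 and 1390 CPM at 0 h, 1160 and 1150 CPM at 0.5 h, 608 and 594 CPM at 1 h, 592 and 593 CPM at 2 h, 965 and 980 CPM at 6 h and 1090 and 1120 CPM at 24 h. All libraries after 0 h were lower than those at 0 h, and those at 1 and 2 h were the lowest of the course. Nedd9 changed on the log2 scale by -1.21 (SE 0.0333, adjusted p = 3.41e-17) at 1 h, -1.23 (SE 0.0334, adjusted p = 8.27e-18) at 2 h and -0.33 (SE 0.0328, adjusted p = 8.44e-09) at 24 h, and its rise from 2 to 24 h was 0.90 (adjusted p = 3.51e-16), inside the 2-fold limit. Per kb, Nedd9 had the highest level of the tested members at 0 h, at 7.79 CPM, followed by Flna at 5.05 CPM, while its relative Bcar1 was not tested.

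Ptk2, which encodes focal adhesion kinase (FAK), was nearly silent, with 10 and 5 counts at 0 h, 25 and 21 counts at 2 h and 19 and 17 counts at 24 h. Its libraries at 2 and 24 h were above those at 0 h, and the log2 change of 1.75 (SE 0.338, adjusted p = 0.000137) at 2 h and 1.61 (SE 0.357, adjusted p = 0.000337) at 24 h rested on few counts. Only 1 library at 0 h reached 10 counts, and without the other, the second, the value at 24 h was 1.23 with an adjusted p = 0.0143 and no longer passed. At 0.5 h no library of Ptk2 reached 10 counts, so it passed the filter only with later libraries where it was higher. A rise was therefore partly built into its being tested. Ptk2b, which encodes the related kinase PYK2, was at 325 and 325 CPM at 0 h and 427 and 438 CPM at 24 h, a log2 change of 0.41. Per kb at 24 h, Ptk2b stood at 3.38 CPM and Ptk2 at 0.00236 CPM.

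In the ILK-PINCH-parvin complex, which joins beta tails to actin, both tested parvins were called down by 24 h and neither Ilk nor Lims1 was called. At 24 h 20.1% of all genes were down, and a group of 4 tested genes is too small to set against that share. Parvb had 64 and 72 counts at 0 h, 37 and 25 counts at 1 h, 23 and 26 counts at 2 h and 11 and 11 counts at 24 h, without overlap between 0 h and the others. Its log2 change was -1.10 (SE 0.227, adjusted p = 0.000366) at 1 h, -1.31 (SE 0.239, adjusted p = 7.25e-05) at 2 h and -2.25 (SE 0.291, adjusted p = 4.02e-07) at 24 h. Parvg, the parvin of blood cells, lies 8.3 kb from Parvb on chromosome 15 and was at -0.70 at 2 h and -1.01 (SE 0.0673, adjusted p = 8.26e-12) at 24 h, close enough to the limit that DESeq2's size factors took it to -0.99. Per kb at 0 h Parvg stood at 4.72 CPM and Parvb at 0.0180 CPM. Lims1, which encodes PINCH1, was at 0.26 at 24 h, and Ilk at 0.34 (adjusted p = 0.0135), though 68.3% of Ilk overlaps Rrp8 and Taf10 on the other strand.

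Among the actin linkers, 1 of 7 was down at 2 h, and 3 were down and 1 up at 24 h, where the falls of all genes made up 6.91% at 2 h and 20.1% at 24 h and their rises at 24 h 20%. Tns3, which encodes tensin 3, fell from 387 and 379 CPM at 0 h to 237 and 236 CPM at 1 h and 98.0 and 98.2 CPM at 2 h, and stood at 181 and 187 CPM at 24 h. No later library overlapped those at 0 h, and the libraries from 2 to 18 h were the lowest. Its log2 change was -1.97 (SE 0.0518, adjusted p = 5.17e-18) at 2 h and -1.06 (SE 0.05, adjusted p = 1.75e-14) at 24 h. Actn4, an alpha-actinin that crosslinks actin, declined gradually and was called only from 18 h on. It had 202 and 199 CPM at 0 h, 195 and 189 CPM at 2 h, 83.8 and 74.8 CPM at 18 h and 77.1 and 76.4 CPM at 24 h. In between, its log2 change was -0.51 at 12 h and -0.68 at 15 h, inside the 2-fold limit. Its libraries from 18 h on lay below all earlier ones, and the log2 change was -0.06 (adjusted p = 0.309) at 2 h and -1.39 (SE 0.055, adjusted p = 8.17e-16) at 24 h. Its paralog Actn1 went the other way from 8 and 16 counts at 0 h to 36 and 44 counts at 24 h, a log2 change of 2.09 (SE 0.33, adjusted p = 6.48e-06), and per kb at 24 h it was still at 0.0122 CPM against 1.11 for Actn4.

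Vcl, which encodes vinculin, was at -0.67 at 2 h and -1.06 (SE 0.0473, adjusted p = 6.16e-15) at 24 h. Vasp, an actin polymerisation factor, was at -0.55 at 2 h and -0.23 at 24 h. The actin crosslinkers Flna (filamin A) and Lcp1 (L-plastin) lay above 0 h at all later time points without being called, Lcp1 most at 12 h (0.87) and Flna most at 24 h (0.65). Cd44, the hyaluronan receptor, is not an integrin but serves the same contacts with matrix. It had 76.2 and 78.9 CPM at 0 h, 37.6 and 37.1 CPM at 1 h, 31.1 and 30.5 CPM at 2 h, 49.3 and 57.1 CPM at 18 h and 36.8 and 39.6 CPM at 24 h. Its libraries from 1 h on were all below those at 0 h, with a log2 change of -1.05 (SE 0.0606, adjusted p = 4.58e-12) at 1 h, -1.33 (SE 0.0621, adjusted p = 7.44e-14) at 2 h and -1.02 (SE 0.0616, adjusted p = 1.39e-12) at 24 h. The value at 24 h was -0.998 without the second library at 0 h and -0.97 without the first at 24 h, and then no longer passed.

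**Figure D5:**
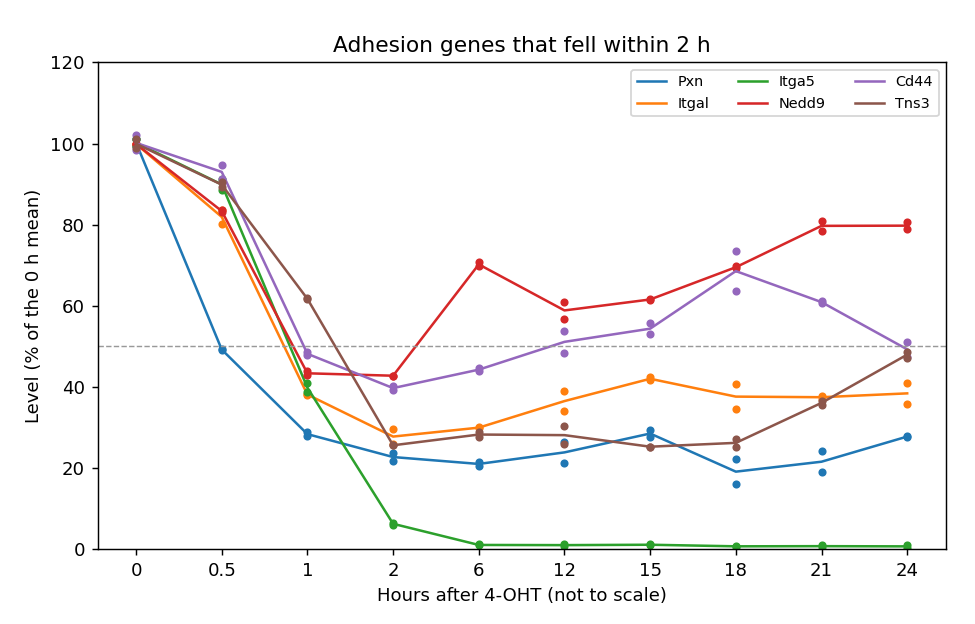
Levels of 6 genes that fell within 2 h, as percent of their mean at 0 h, against hours after 4-OHT, with a point for each library and a line through the mean of the 2. The dashed line marks 50%. Pxn is at that line after 0.5 h, Itga5 goes to near 0 by 6 h, and Nedd9, Cd44 and Tns3 lie higher at 18 h or later than at 2 h.

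The early and late ends of the course were compared directly. Between 24 and 2 h, 5 members were lower and 5 higher, where 16.6% and 16.2% of all genes were. The lower ones were Itga5 (-3.23), Itgb5 (-2.42), Itga1 (-1.81), Actn4 (-1.32) and Itgae (-1.18), and the higher ones were Actn1 (3.04), Itgax (2.41), Itgb3 (1.93), Tln1 (1.38) and Itga4 (1.14), all as log2 differences. In this contrast the 0 h level cancels. By when they were first called, the members fell into Pxn at 0.5 h, then Itga5, Itgal, Itga9, Parvb, Nedd9, Cd44 and the rising Itgax at 1 h, then Tns3 with the rising Itga2, Itga4, Itgb3 and Ptk2 at 2 h. Itgb5 followed at 6 h, the rising Itgb2 at 12 h, and Itgae, Parvg and Actn4 at 18 h, with Vcl, Tln1 and Actn1 at 24 h. The other 19 tested members were never called.

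The wider set of 94 genes that feed into integrin adhesion, 78 of them tested, had 4 down and 3 up at 2 h, beside 6.91% and 6.25% of all genes, and 10 down and 15 up at 24 h, beside 20.1% and 20%, and 44.9% of them changed over the course. At 2 h the largest falls were in Lamb1, a laminin chain, from 54.0 and 53.6 CPM to 5.17 and 5.71 CPM, in Rasgrp3, an exchange factor for RAP1 and RAS, from 31.7 and 30.4 CPM to 4.78 and 4.81 CPM, and in Rsu1, a partner of PINCH1, from 294 and 297 CPM to 85.0 and 83.7 CPM. None of the 3 overlapped its 0 h libraries, and the log2 changes were -3.30, -2.69 and -1.81. The largest rises at 2 h were in Pdlim7 (2.05), an actin-bound LIM protein, Skap1 (1.35), an adaptor for RAP1 signalling to integrins, and Cytip (1.12), which binds cytohesin 1. At 24 h Cytip stood at 747 and 765 CPM against 52.5 and 52.3 CPM at 0 h (3.85), Icam1, the ligand of LFA-1, at 58.9 and 55.9 CPM against 10.8 ± 0.229 CPM (2.40) and Skap1 at 49.4 and 54.6 CPM against 10.9 and 11.2 CPM (2.23). Lamb1 (-5.06), Jam3 (-1.99), a junctional adhesion molecule, and Lama5 (-1.82), a laminin chain, had the largest falls at 24 h.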

How the data were processed

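Chromatin-associated RNA of 20 libraries, 2 at each of 10 time points, was analysed from raw read counts per gene. The authors mapped the reads to mm10 (nf-core/rnaseq, STAR), ran featureCounts over exons and introns, and deposited the counts unnormalized. The kit was directional. Which annotation release was used, whether strand was used in counting and how reads over more than 1 gene were treated are not given in the sources used here. Library totals ran from 33296158 to 46868954 counts. Reads carry no molecular identifiers, so intervals cover counting error only.

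Time points and replicate numbers came from the labels. The 16601 of 56239 genes that reached 10 counts in 2 or more libraries entered 1 model of all 20 libraries, with time point as the factor and TMM scaling, and were tested by quasi-likelihood in edgeR 4.0.16 (R 4.3.3). P-values were adjusted by Benjamini-Hochberg over all genes tested, and calls needed an adjusted p-value under 0.01 together with more than a 2-fold change, as in the study's methods. Standard errors are the log2 fold change over the root of the F statistic. Intervals of low counts are exact conditional binomial ones (scipy 1.17.1). Positions, gene body lengths and overlaps came from GENCODE M21 (GRCm38), which holds 55240 of the identifiers. On simulated counts for the comparison of 24 h with 0 h (16011 genes), the fit called 81.9% of genes changed by 1.5 on the log2 scale, 91.5% of those changed by 2, and 0 of the others.

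The members and the lists were chosen with earlier results of these data known. Per-library values are given for members called at 0.5, 1 or 2 h and, among those averaging at least 1 CPM and called at 24 h, for the 6 with the largest falls and the 6 with the largest rises (4 met this). Of the wider list the 3 largest of each were named at 2 and 24 h, and other members have a level or fold change. Promoters were to be shown for the 3 largest falls at 1 h and the largest rise at 2 h. Other settings tried were scaling by library totals or by DESeq2's size factors, no filter, a filter of 10 counts in each library, DESeq2 1.42.0 as the test, the replicate block, no minimum fold change, an adjusted p-value under 0.05 and leaving out each library. Same-numbered replicates did not deviate together (12056 genes, mean correlation -0.000316 over 45 pairs of time points, from -0.454 to 0.249). The other assays of the study were not analysed here.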

Additional observations from a re-analysis of the deposited data

Results flagged for a closer look

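For 10 members the change by 24 h differed from the change by 2 h, tested as the contrast of 24 with 2 h in the fit of all libraries with edgeR's quasi-likelihood test and called at the same thresholds. Of the 40 tested members 12.5% were lower and 12.5% higher, against 16.6% and 16.2% of all genes. Their number is therefore no excess over all genes. The fall grew between these times in Itga5, by a further -3.23 on the log2 scale, and set in after 2 h in Itgb5 (-2.42), Actn4 (-1.32) and Itgae (-1.18). The rise grew in Itgax (2.41), Itgb3 (1.93) and Itga4 (1.14). Tln1 (1.38) stood below 0 h at 2 h without being called and above it at 24 h. Actn1 (3.04) rests on low counts, with at least 10 in only 9 of the 20 libraries. Its 2 h libraries overlapped those at 0 h, and its 24 h libraries lay above them. Itga1 (-1.81) rests on at most 13 counts in any library, was not called against 0 h at any time point and entered the test only through its 2 h libraries, so its difference was partly fixed by the filter.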

How the results depend on the processing

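The number of members called was recomputed under each alternative for the 9 time points, for 24 against 2 h and for the course. The shares of all genes called under these alternatives are not given, so the counts describe the members only and cannot be set against a background. With at least 10 counts required in every library, the members up were 0 at 1 h, 3 at 2 h, 2 at 6 h, 3 at 15 h, 2 at 21 h, 3 at 24 h and 3 for 24 against 2 h, because Itgax, Ptk2 and Actn1 were then not tested. With no minimum fold change, the members down were 5 at 0.5 h, 15 at 1 h, 17 at 2 h, 17 at 6 h, 20 at 12 h, 16 at 15 h, 19 at 18 h, 18 at 21 h, and 13 for 24 against 2 h. The members up were then 3 at 0.5 h, 8 at 1 h, 11 at 2 h, 11 at 6 h, 12 at 12 h, 14 at 15 h, 14 at 18 h, 16 at 21 h, 16 at 24 h, and 19 for 24 against 2 h, with 38 changed over the course. Counts under DESeq2's size factors, library totals, no filter, DESeq2 and an adjusted p-value under 0.05 stayed within 1.5 times the reported ones. Replicate numbers did not pair the samples, and when the replicate block was added the members down numbered 8 at 2 h and 12 at 24 h, those up 5 at 2 h and 6 at 24 h, and 21 changed over the course, as without it. Leaving out each library in turn gave 5 to 7 down at 1 h, 8 to 9 down and 4 to 5 up at 2 h, 11 to 13 down and 4 to 6 up at 24 h, and 20 to 22 over the course. Signs turned only in values that were not called. Itga8 ran from -0.0048 to 0.82 at 2 h and from -0.93 to 0.99 at 24 h when each library was left out, so no direction can be given for it. The other values were small: Itgb5 at 2 h (from -0.19 to 0.12 when each library was left out), Rap1a at 2 h (-0.00316 with no filter, and from -0.00727 to 0.0200 when each library was left out), and Apbb1ip (-0.10) and Rap1b (-0.22) at 24 h with library totals. Near the 2-fold limit, Itga2 at 2 h and Tln1, Parvg and Cd44 at 24 h lost the call under some settings, and Itgb1 gained it. Ptk2 at 24 h lost it without the second library at 0 h on the adjusted p-value (0.0143) at a log2 change of 1.23. Genes under about 10 counts a library are limited by depth.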

Other observations

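Nedd9 shares 9.56% of its length with genes on the other strand, the most read of which, Gm32401, averaged 41.8 CPM. Its log2 changes were -0.24 at 1 h, 0.19 at 2 h, 1.01 at 6 h and 0.97 at 24 h, where those of Nedd9 were -1.21, -1.23, -0.51 and -0.33. Itgal and Itgax lie 794.4 kb apart on chromosome 7, and the former fell while the latter rose. Of the 40 tested members, 15 overlapped no other annotated gene and 8 overlapped others over more than 10% of their length.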
